A study of Homo sapiens with 8 samples.

Results

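The genes described here are CD36 and 8 others that take up, release, bind or sense fatty acids and lipoproteins, namely SCARB1, SCARB2, OLR1, MSR1, FABP4, FABP5, LPL and PPARG. They were picked out by gene symbol from a list drawn up with earlier results of these data known. The study's discussion names CD36 among genes found in this profiling that earlier work had tied to IL-13. All 9 genes were on the array, as 10 of the 29141 tested features and 9 of 20193 distinct gene symbols. Expression was measured in MIV-Luc cells, a luciferase-expressing form of MCF10CA1a, which is the metastatic carcinoma line of the MCF10A breast epithelial series. The cells carried a stably integrated lentiviral pLKO construct, either a scrambled hairpin (shSCR) or 1 hairpin against the decoy receptor of IL-13 (shIL13Rα2#2), and were mock-treated or kept for 16 h in IL-13 at 20 ng/ml. The 4 groups of 2 arrays each are written shSCR (− IL-13), shSCR (+ IL-13), shIL13Rα2#2 (− IL-13) and shIL13Rα2#2 (+ IL-13), and the arrays of a group are called A and B in the order of their columns. Since 1 hairpin in transduced cell pools stands for the knockdown, a difference between the cell lines cannot be told apart from an effect of that hairpin or of those pools. Values are log2 expression made with the RMA method, which corrects background, brings all arrays to one distribution and combines each gene's probes into 1 value.

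CD36 is a membrane glycoprotein of the class B scavenger receptors that binds long-chain fatty acids, oxidized lipoproteins and thrombospondin and helps fatty acids to enter cells. Fatty acids at the surface are released from triglyceride-rich lipoproteins by the lipase LPL, and those inside the cell are carried by fatty acid binding proteins such as FABP4 and FABP5. PPARG encodes a nuclear receptor that is activated by fatty acid ligands and whose known target genes include CD36, FABP4 and LPL. IL-13 signals through STAT6, and in macrophages IL-13 and IL-4 are known to induce CD36 and PPARG.

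Because CD36 and PPARG are both known to respond to IL-13 in macrophages, their start site windows were searched for letters of these pathways. RefSeq (GRCh38.p14) gave windows for CD36, PPARG and SCARB2, 300 bases each, of which 250 lie before the start site. The motif TTCNNNNGAA, the spacing that STAT6 is known to prefer, was found in windows 3 and 4 of the 6 CD36 windows, which overlap, and in none of the 6 PPARG windows, beside 6.46% of the 34943 windows of all genes. The related motif TTCNNNGAA (7.66% of all windows) was in window 5 of CD36, and AGGTCANAGGTCA, a paired element that PPAR receptors bind (0.0229%), was in no window of these 3 genes. The single AGGTCA element (13.8%, both strands searched for every motif) was in windows 1, 2 and 3 of the 6 PPARG windows. Windows 2 and 3 overlap and share the same match. The bases before the start site are shown for the CD36 window at chr7:80638266-80638515 and the PPARG window at chr3:12288810-12289059, both on the plus strand, 5′ to 3′, with the matched letters in capitals, at -70 and at -14 from the start site.
CD36: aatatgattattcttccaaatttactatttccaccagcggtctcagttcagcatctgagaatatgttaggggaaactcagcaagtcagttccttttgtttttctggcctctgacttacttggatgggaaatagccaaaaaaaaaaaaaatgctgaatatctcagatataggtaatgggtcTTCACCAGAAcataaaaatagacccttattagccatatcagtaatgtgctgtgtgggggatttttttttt
PPARG: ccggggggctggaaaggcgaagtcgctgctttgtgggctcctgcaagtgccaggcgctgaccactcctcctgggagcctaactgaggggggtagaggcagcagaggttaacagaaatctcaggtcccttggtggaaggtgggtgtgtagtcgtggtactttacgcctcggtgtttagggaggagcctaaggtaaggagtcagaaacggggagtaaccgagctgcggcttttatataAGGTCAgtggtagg
A match of letters is no evidence of binding, and no binding was measured here.

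IL13RA2, the target of the hairpin, was lower in both groups of knockdown cells than in shSCR cells of the same treatment. In shSCR (− IL-13) cells its log2 expression was 8.07 and 8.09 on the 2 arrays, and in shIL13Rα2#2 (− IL-13) cells 6.52 and 6.34. With IL-13 it was 9.36 and 9.33 in shSCR cells and 8.23 and 8.15 in knockdown cells, and between knockdown cells with IL-13 and shSCR cells without it the log2 difference was 0.11 (95% confidence interval -0.14 to 0.36). In knockdown cells IL13RA2 fell by 1.65 (adjusted p = 0.0105 from limma) without IL-13 and fell by 1.16 (adjusted p = 0.0241 from limma) with it. Leaving out 1 array raised these adjusted p-values from limma to as much as 0.157 and 0.214. The arrays were alike as a whole, with array medians between 5.02 and 5.06 and a median SD between arrays of a group of 0.143 over all features. The 8 basal breast epithelial markers (KRT5, KRT14, KRT17, KRT6A, EPCAM, CDH1, EGFR and LAMB3) all lay above the median of the negative control features, which was 4.19. Of all tested features, 67.0% lay above it.

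None of the 9 genes passed the test, a limma adjusted p under 0.05 over all features together with a fold change above 2, in any of 8 comparisons. IL-13 was compared with mock treatment in shSCR cells (0.0583% of all features passed), in knockdown cells (0.0618%) and as a mean over both (0.0927%). The knockdown was compared with shSCR without IL-13 (0.0652%), with IL-13 in both (0.0515%) and as a mean over both treatments (0.0755%). Knockdown cells given IL-13 were also set against mock-treated shSCR cells (0.154%), and the interaction was judged on the adjusted p alone (0%). At an unadjusted limma p under 0.05, the members were PPARG alone for IL-13 in shSCR cells, beside 6.79% of all features, and CD36 alone for the knockdown without IL-13, beside 9.51%. CD36, OLR1, FABP4 and PPARG were below it in knockdown cells given IL-13 against shSCR (− IL-13) cells (9.56% of all features), all 4 higher. CD36, FABP4 and PPARG were below it for IL-13 in knockdown cells (6.93%) and for the mean IL-13 effect (8.73%), all higher with IL-13. For the knockdown among IL-13-treated cells they were CD36, SCARB1 and FABP4 (7.07%), for the mean knockdown effect CD36, SCARB1 and SCARB2 (11.3%), and for the interaction none (4.47%).

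CD36, the fatty acid receptor of the set, was highest in the knockdown cells given IL-13. Its log2 expression was 3.58 and 3.66 in shSCR (− IL-13) cells, 3.47 and 4.20 in shSCR (+ IL-13) cells, 4.13 and 4.23 in shIL13Rα2#2 (− IL-13) cells, and 5.02 and 4.64 in shIL13Rα2#2 (+ IL-13) cells. Both arrays of this last group lay above the other 6, while the arrays of shSCR cells given IL-13 spread over 0.74, more than those of any other group. CD36 was dim as a whole, since 51.1% of the 2904 negative control features had a mean at or above its own. Both arrays of shSCR (− IL-13) cells, the baseline group, lay below the negative control median of 4.19, and both arrays of shIL13Rα2#2 (+ IL-13) cells above it. These 2 highest arrays still lay below the upper quartile of the negative controls, 6.07. A level of CD36 above background was thus not shown for any group.

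Against mock-treated shSCR cells, CD36 was higher by 1.21 on the log2 scale in knockdown cells given IL-13 (standard error 0.23, 95% confidence interval 0.67 to 1.74, adjusted p = 0.127 from limma), and did not pass the test. A limma fit whose prior followed intensity and was robust gave an adjusted p of 0.0252 for this difference and would call it. Among IL-13-treated cells the knockdown difference was 0.99 (95% confidence interval 0.46 to 1.53, adjusted p = 0.355 from limma), and without IL-13 it was 0.56 (0.02 to 1.10, adjusted p = 0.518 from limma). IL-13 went with a difference of 0.65 in knockdown cells (0.11 to 1.18, adjusted p = 0.647 from limma) and of 0.21 in shSCR cells (-0.33 to 0.75, adjusted p = 0.906 from limma), and the latter became -0.16 without array B of the treated shSCR cells. The interaction was 0.43 (-0.32 to 1.19, adjusted p = 0.989 from limma), and a difference in the CD36 response to IL-13 between the cell lines was thus not detectable with these arrays. In bulk RNA, more CD36 per cell and more cells with CD36 cannot be told apart. The mean knockdown effect on CD36 was 0.78 (0.40 to 1.16, adjusted p = 0.129 from limma), and an exact two-sided permutation test within treatments gave p = 0.0556, the smallest that its 36 arrangements allow. The mean IL-13 effect was 0.43 (0.05 to 0.81, exact permutation p = 0.167).

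The other class B receptors of the set were lower in knockdown cells. SCARB1, the receptor for high density lipoprotein, had log2 expression of 6.40 and 6.35 in shSCR (− IL-13) cells, 6.60 and 6.31 in shSCR (+ IL-13) cells, 6.04 and 6.18 in shIL13Rα2#2 (− IL-13) cells, and 6.11 and 6.19 in shIL13Rα2#2 (+ IL-13) cells. All 4 knockdown arrays lay below all 4 shSCR arrays. The mean knockdown difference was -0.29 (95% confidence interval -0.49 to -0.08, adjusted p = 0.314 from limma), with an exact permutation p of 0.0556, again the smallest possible. SCARB2, a lysosomal membrane protein, lay above most negative controls (6.13% of them at or above its mean), at 9.23 and 9.36, then 9.22 and 9.28, then 9.14 and 9.07, and then 9.13 and 9.03 in the groups in the same order. Its knockdown arrays also lay below its shSCR arrays, by a mean of -0.18 (95% confidence interval -0.36 to -0.0016, adjusted p = 0.439 from limma, exact permutation p = 0.0556). SCARB1 and SCARB2 were the members whose 4 knockdown arrays did not overlap the 4 shSCR arrays, as was seen in 7.13% of all features. With IL-13 both genes differed little, by a mean of 0.06 (95% confidence interval -0.15 to 0.27) for SCARB1 and -0.03 (-0.21 to 0.14) for SCARB2.

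OLR1 and MSR1, receptors for oxidized and modified lipoproteins that are best known from endothelium and macrophages, lay low against the negative control features. OLR1 had log2 expression of 3.20 and 2.86 in shSCR (− IL-13) cells, 3.23 and 3.18 in shSCR (+ IL-13) cells, 3.40 and 2.997 in shIL13Rα2#2 (− IL-13) cells, and 3.45 and 3.38 in shIL13Rα2#2 (+ IL-13) cells. The OLR1 difference of knockdown cells given IL-13 from mock-treated shSCR cells was 0.39 (0.01 to 0.77 at 95% confidence, adjusted p = 0.516 from limma). MSR1 ranged from 2.52 to 2.95 over the 8 arrays, and its groups overlapped in that comparison (0.07, 95% confidence interval -0.28 to 0.41). Of the negative control features, 68.6% had a mean at or above that of OLR1 and 79.4% at or above that of MSR1, so a level above background was not shown for either gene. Of the markers of cells that use these receptors, 4 of 8 macrophage, 3 of 6 endothelial and 4 of 6 adipocyte markers lay above the negative control median. The share over all tested features was 67.0%, so these counts do not show that such markers are expressed here. The mean log2 level over the 8 arrays was 3.77 to 3.93 for the macrophage list, 4.49 to 4.72 for the adipocyte list and 4.91 to 5.21 for the endothelial list. Above that median were CD14, CSF1R, ITGAM and LYZ among macrophage markers, LEP, PLIN1, CIDEC and AQP7 among adipocyte markers, and PECAM1, CDH5 and CLDN5 among endothelial markers. PTPRC, CD163, MRC1 and FCGR1A, ADIPOQ and GPD1, and VWF, KDR and TEK were not above it.

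LPL, the lipase that frees fatty acids from lipoproteins, showed no order of the groups. Its log2 expression was 4.49 and 4.31 in shSCR (− IL-13) cells, 3.90 and 4.33 in shSCR (+ IL-13) cells, 4.17 and 4.48 in shIL13Rα2#2 (− IL-13) cells, and 4.13 and 4.63 in shIL13Rα2#2 (+ IL-13) cells. All groups overlapped. The LPL difference between knockdown cells given IL-13 and shSCR (− IL-13) cells was -0.02 (95% confidence interval -0.51 to 0.47), an interval that leaves room for a change of either sign, and the sign turned with single arrays left out (-0.27 to 0.22).

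FABP4, which carries fatty acids in adipocytes and macrophages, was highest in knockdown cells given IL-13, as CD36 was. Its log2 expression was 4.33 and 4.77 in shSCR (− IL-13) cells, 5.07 and 4.75 in shSCR (+ IL-13) cells, 4.55 and 4.56 in shIL13Rα2#2 (− IL-13) cells, and 5.67 and 5.24 in shIL13Rα2#2 (+ IL-13) cells. The last 2 arrays were the highest of the 8, and the 2 groups of shSCR cells overlapped. FABP4 was rather dim, with 39.5% of the negative control features at or above its mean. FABP4 was higher with IL-13 by 0.90 in knockdown cells (95% confidence interval 0.44 to 1.36, adjusted p = 0.390 from limma) and by 0.36 in shSCR cells (-0.10 to 0.82, adjusted p = 0.795 from limma). The interaction was 0.54 (-0.11 to 1.19, adjusted p = 0.989 from limma). Unlike CD36, FABP4 had a knockdown difference close to 0 without IL-13 (0.0035, 95% confidence interval -0.46 to 0.46), a value that ran from -0.22 to 0.22 with single arrays left out. Whether the 2 genes differ in this respect was not tested. Its mean IL-13 effect was 0.63 (0.31 to 0.96, adjusted p = 0.224 from limma, exact permutation p = 0.111).

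FABP5, the epidermal fatty acid binding protein, varied little between arrays. Its 2 features carry the same accession and differed by at most 0.046 on any array, so they are not independent, and RefSeq names 15 FABP5 pseudogenes whose transcripts could share probe signal. The first feature ranged from 8.89 to 9.08 over the 8 arrays and the second from 8.89 to 9.07. Both were highest in mock-treated shSCR cells. The differences of knockdown cells given IL-13 from these were -0.10 (95% confidence interval -0.33 to 0.13) and -0.11 (-0.34 to 0.11).

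PPARG, the fatty acid-sensing nuclear receptor, was higher with IL-13 in both cell lines. Its log2 expression was 8.93 and 8.84 in shSCR (− IL-13) cells, 9.35 and 9.41 in shSCR (+ IL-13) cells, 8.76 and 8.89 in shIL13Rα2#2 (− IL-13) cells, and 9.27 and 9.29 in shIL13Rα2#2 (+ IL-13) cells. The 4 arrays with IL-13 lay above the 4 without, and PPARG was the only member for which they did not overlap, as was seen in 4.78% of all features. The IL-13 difference was 0.50 in shSCR cells (standard error 0.11, 95% confidence interval 0.26 to 0.75, adjusted p = 0.373 from limma) and 0.45 in knockdown cells (0.21 to 0.70, adjusted p = 0.428 from limma). The mean over both was 0.48 (1.39-fold, 0.30 to 0.65, adjusted p = 0.0714 from limma), with an exact permutation p of 0.0556, the smallest possible. The interaction was -0.05 (-0.40 to 0.30). Between the cell lines PPARG differed by a mean of -0.08 (-0.25 to 0.09).

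**Figure D1:**
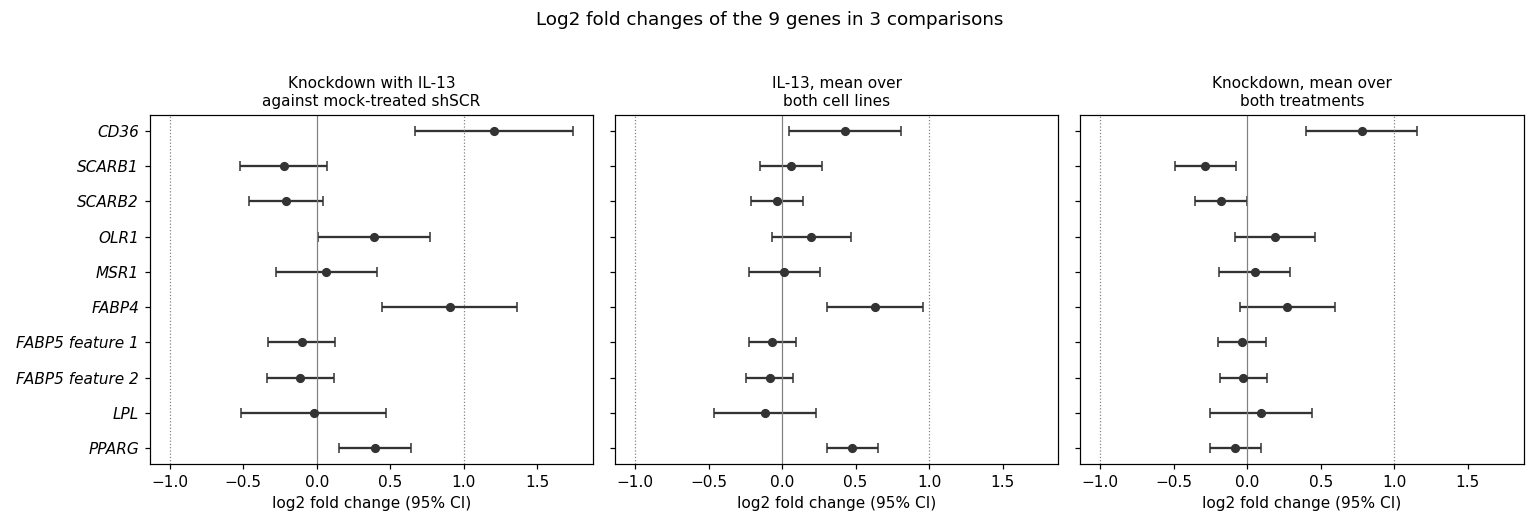
Log2 fold changes (horizontal axis) of the 9 genes with 95% confidence intervals from limma in 3 comparisons; dotted lines mark a fold change of 2. CD36 lay at 1.21 in knockdown cells given IL-13 against shSCR (− IL-13) cells and at 0.78 for the knockdown mean, PPARG at 0.48 and FABP4 at 0.63 for the IL-13 mean, and SCARB1 at -0.29 for the knockdown mean.

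Between knockdown cells given IL-13 and shSCR (− IL-13) cells, 7 of the 9 genes did not overlap between the groups, all but MSR1 and LPL, beside 40.3% of all features. CD36, OLR1, FABP4 and PPARG were higher, and SCARB1, SCARB2 and FABP5 were lower. The median log2 fold change of the 9 genes was 0.07, and that of all features was 0.0062. These comparisons share arrays, so the same array can move several of the values above.

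Of the related genes, THBS1 and ACSL5 had an adjusted p under 0.05 in at least 1 comparison. THBS1 encodes thrombospondin-1, a secreted ligand of CD36. Its log2 expression was 8.61 and 8.32 in shSCR (− IL-13) cells, 9.24 and 9.24 in shSCR (+ IL-13) cells, 9.12 and 9.18 in shIL13Rα2#2 (− IL-13) cells, and 9.82 and 9.63 in shIL13Rα2#2 (+ IL-13) cells. THBS1 rose by 1.26 (2.39-fold, 95% confidence interval 0.95 to 1.56, adjusted p = 0.0152 from limma) in knockdown cells given IL-13 against mock-treated shSCR cells, and this call was lost when any of the 4 arrays was left out (adjusted p from limma 0.0651 without array A and 0.0904 without array B of shSCR (− IL-13), then 0.111 and 0.105 without array A and array B of the treated knockdown cells). Its mean IL-13 effect was 0.67 (adjusted p = 0.0440 from limma) and its mean knockdown effect 0.58 (adjusted p = 0.0532 from limma), both under a fold change of 2.

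ACSL5 encodes an acyl-CoA synthetase that activates long-chain fatty acids after uptake. Its log2 expression was 5.88 and 5.72 in shSCR (− IL-13) cells, 6.70 and 6.68 in shSCR (+ IL-13) cells, 5.86 and 6.09 in shIL13Rα2#2 (− IL-13) cells, and 6.77 and 6.45 in shIL13Rα2#2 (+ IL-13) cells. All 4 arrays with IL-13 lay above all 4 without. The mean IL-13 effect was 0.76 (1.69-fold, 95% confidence interval 0.52 to 1.00, adjusted p = 0.0382 from limma), and the mean knockdown effect was 0.05 (-0.19 to 0.29). With single arrays left out, the adjusted p of the IL-13 effect from limma was 0.0762 to 0.191 for ACSL5 and 0.0758 to 0.205 for THBS1.

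**Figure D2:**
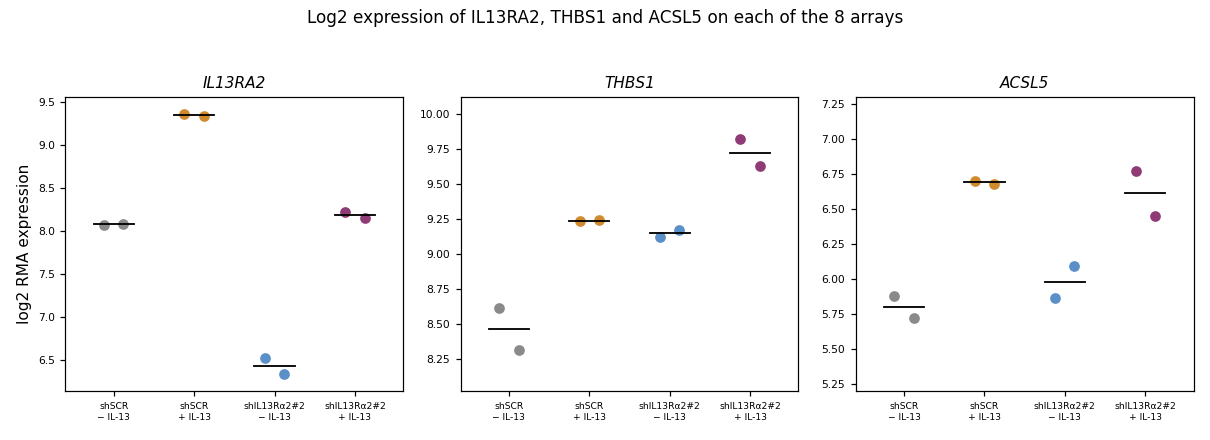
Log2 RMA expression (vertical axes, whose spans differ) of the hairpin's target IL13RA2, the CD36 ligand THBS1 and the acyl-CoA synthetase ACSL5 on the 8 arrays by group; points are arrays and black lines are means of 2 arrays. THBS1 was highest in knockdown cells given IL-13 (9.82 and 9.63), and ACSL5 was higher on the 4 arrays with IL-13 (6.45 to 6.77) than on the 4 without (5.72 to 6.09).

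In the same comparison of knockdown cells given IL-13 with mock-treated shSCR cells, the other steps of fatty acid handling had medians near that of all features (0.0062). No gene of the lists in this paragraph passed the test. THBS1, from the list of CD36 ligands described further below, was the only gene of any related list that did. Among 13 fatty acid transport proteins and acyl-CoA synthetases the median log2 fold change was 0.09, from -0.12 for the caveolin CAV1 to 0.81 for ACSL5 (adjusted p = 0.0936 from limma). Among the other intracellular lipid binding proteins, 9 of 10 on the array, it was 0.10, from -0.25 for the liver form FABP1 to 0.55 for the heart form FABP3 (adjusted p = 0.411 from limma). The 16 lipase partners and lipoprotein receptors had a median of -0.07. The 13 other scavenger receptors had a median of -0.03, from -0.54 for CD68 to 0.40 for CXCL16.

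The other lists were described in the same way, and no gene of PPAR signalling passed the test. The median of 16 PPAR and LXR receptors and cofactors was -0.03, with PPARA lowest at -0.30 and RXRG highest at 0.30. Of the PPAR target genes, 20 of 21 were on the array, and their median was -0.05, from -0.43 for PCK1, an enzyme of glucose synthesis, to 0.18 for the lipid droplet protein PLIN4. Among 14 CD36 ligands, membrane partners and palmitoylation enzymes the median was -0.03, and TLR6, a receptor that can act together with CD36, was lowest at -0.70 (adjusted p = 0.237 from limma). The 15 genes of fatty acid synthesis and esterification had a median of 0.07, from -0.21 for ELOVL1 to 0.27 for ELOVL5, both enzymes that lengthen fatty acids. The basal breast epithelial markers had the lowest median, -0.24, with all 8 below 0, from -0.48 for LAMB3 to -0.07 for KRT14, and 0 of 8 passed the limma test (2 of 8 at an unadjusted p under 0.05). The medians were -0.05 for the macrophage markers (CD14 at -0.42 to ITGAM at 0.28), -0.07 for the adipocyte markers (ADIPOQ at -0.32 to GPD1 at 0.24) and -0.08 for the endothelial markers (KDR at -0.12 to CDH5 at 0.01). PECAM1, an endothelial marker named after its values were seen, differed more in other comparisons. It was higher by 0.61 in knockdown cells without IL-13 (adjusted p = 0.217 from limma) and by 0.52 as a mean knockdown effect (adjusted p = 0.0615 from limma), and its mean IL-13 effect was -0.52 (adjusted p = 0.0938 from limma). The CD36 knockdown differences in the same comparisons were 0.56 and 0.78. The part of these shifts in the values of the 9 genes was not tested.

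The genes whose log2 values followed CD36 most closely over the 8 arrays, among 1920 features with a gene symbol and an SD of at least 0.5 times that of CD36, were PALMD (Pearson's r = 0.951), SRXN1 (0.944), B3GALNT2 (0.939), FLRT2 (0.937) and AMIGO2 (0.923). These are descriptions over 8 arrays that fall into 4 groups. PALMD, a relative of paralemmin, had log2 expression of 5.67 and 5.58 in shSCR (− IL-13) cells, 6.04 and 6.34 in shSCR (+ IL-13) cells, 6.48 and 6.55 in shIL13Rα2#2 (− IL-13) cells, and 7.56 and 7.14 in shIL13Rα2#2 (+ IL-13) cells. PALMD was picked for its likeness to CD36 over these same 8 arrays, so a pattern shared with CD36 is no separate result. Like CD36, it was highest in knockdown cells given IL-13 and had array B above array A in shSCR cells given IL-13. Of the other genes described here, THBS1 had r = 0.801 with CD36, FABP4 0.649, PPARG 0.295 and SCARB1 -0.765.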

How the data were processed

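The arrays were Affymetrix GeneChips, labelled Human Exon 1.0 ST. The authors deposited log2 expression values made with RMA in Affymetrix Expression Console (version 1, per the labels), 1 value per gene-level feature and array. RMA compresses the differences of dim genes. The file gave no detection call, so signals were set against 2904 negative control features (quartiles 2.91 and 6.07). Of 33297 features, 4156 controls were left out and 29141 tested without a filter. Each column's group came from its heading.

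Group means were fitted with limma 3.58.1 in R 4.3.3 over all 8 arrays (4 residual and 3.86 prior degrees of freedom), with Benjamini-Hochberg adjustment over all features. A call needed an adjusted p under 0.05 and a fold change above 2. The study's methods state 2 biological replicates per group, and 2 arrays against 2 cannot give an exact two-sided permutation p below 0.333, so exact tests were run on mean effects only. Precision is limited by having 8 arrays. The fit was also run on simulated data with independent normal noise. The outcome is not reported here and backs no result above.

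The members and gene lists were chosen with earlier results of these data known. Genes named are the members, IL13RA2, listed genes with an adjusted p under 0.05 in any comparison, the extremes of each list (those of the lipase partners and lipoprotein receptors are not reported here), and the 5 features most correlated with CD36. Alternatives were a one-way analysis of variance on the arrays compared (the methods' test), limma on those arrays alone, no adjustment, other fold thresholds, leaving out the dimmest 30% of features, median shifting, another round of quantile normalization, a robust prior with an intensity trend, keeping 1 feature per gene, and leaving out each array.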

Additional observations from a re-analysis of the deposited data

How the results depend on the processing

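The 9 genes gave 0 calls with limma and with the methods' test in all comparisons but 1. In knockdown cells given IL-13 against mock-treated shSCR cells, 1 gene, CD36, was called (1.21) with a robust prior and an intensity trend, with limma but no adjustment, and with the methods' test but no adjustment. Over all settings that kept every array, the adjusted p of this difference ran from 0.0252 (limma with the robust prior and trend just named) to 0.602 (the methods' test). With single arrays left out the difference was 1.02 to 1.39 (adjusted p from limma 0.0555 to 0.456). The mean IL-13 effect on PPARG had an adjusted p from limma of 0.000878 with the trend and robust prior and of 0.200 to 0.281 with single arrays left out, always under a fold change of 2. Directions turned for values near 0. With single arrays left out, CD36 for IL-13 in shSCR cells ran from -0.16 to 0.58, FABP4 for the knockdown without IL-13 from -0.22 to 0.22 (-0.0072 with a further quantile normalization), LPL for knockdown with IL-13 from -0.27 to 0.22, PPARG for the knockdown without IL-13 from -0.12 to 0.0090, and the PPARG interaction from -0.11 to 0.018. The causes were not tested. Of all values recomputed, 957 kept their direction and side of the threshold, 30 lost a call, 10 gained one and 8 turned. The lost calls were those of IL13RA2 and THBS1. With adjustment, the methods' test lost the IL13RA2 call for the knockdown without IL-13 (adjusted p = 0.537 from that test) and with it (0.604). Limma on the arrays compared alone lost both as well (adjusted p = 0.174 and 0.237 from limma). These settings missed the hairpin's own target, so 0 calls of the 9 genes with them carries no weight. Without the dimmest 30% of features, OLR1 and MSR1 had no value. The methods' test and limma on the arrays compared could not be run for the interaction and mean effects. No paired analysis was possible because the columns of the table carry no replicate numbers. Means over all arrays below the negative control median limit what the differences of CD36, OLR1 and MSR1 show, although CD36 lay above that median on 4 of 8 arrays. The means of FABP4 and LPL lay above that median but near it, with 39.5% and 47.7% of negative control features at or above them. Their differences are limited in the same way.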
